A study of Mus musculus with 2 samples.

Results

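The 10 genes described here, all of the small leucine-rich proteoglycan (SLRP) family, were followed in stromal cells of grafted mouse intestine: Dcn, Lum, Bgn, Fmod, Ogn, Prelp, Aspn, Optc, Omd and Podn. They were taken by gene symbol from the 28692 features of 2 single-cell RNA-seq libraries, and all 10 were found, with at least 1 unique molecular identifier (UMI) each. Small and large intestine of E12.5 embryos, sired by EYFP males with C57BL/6Nrj females (strain label EYFP (C57BL/6)), had been grafted under the kidney capsule of adult WT mice. After 4 weeks, live YFP+ Itgb1+ cells negative for CD45, Ter119, BP3, CD31, EpCAM and L1CAM were sorted into 1 library per graft site, the LI graft and the SI graft. Grafts were pooled for the colonic library, so 1 library stood for each site and no test between sites or between cell classes was possible. Intervals given with a value cover counting error only.

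SLRPs are secreted proteins with a short core of leucine-rich repeats, and many carry chondroitin, dermatan or keratan sulfate chains. Several bind collagen fibrils and set their width and spacing, and some also hold growth factors of the TGF-β family or act as ligands of cell surface receptors. In connective tissue they are known as products of fibroblasts, and decorin is a common marker of these cells.

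The LI library held 11568 barcodes with 63348069 UMIs and the SI library 9631 barcodes with 54918006 UMIs. Filtering on 500 or more genes and no more than 10% mitochondrial UMIs left 9873 and 7910 cells with a median of 5288 and 5682 UMIs. There were 26 cell barcodes found in both libraries. A cell was put in a class when it carried UMIs of at least 3 distinct markers of that class, and none of the 10 genes was a marker. This gave 6255 LI and 4695 SI fibroblasts (FB) and 951 LI and 1592 SI mural cells. Among FB, 583 LI and 345 SI cells were PDGFRAhi-like, 582 and 305 Pi16-like, 893 and 1021 CD81 Grem1-like, and 859 and 731 Fgfr2-like. Mural cells were pericyte-like (360 LI and 444 SI), smooth muscle cell (SMC)-like (390 and 601) or carried markers of both (201 and 547). Sox6, Bmp7 and Bmp3 were among the 10 leading genes of PDGFRAhi-like FB in both libraries, Cnn1, Myh11 and Actg2 among those of SMC-like cells. In the LI library, Pi16 was the only marker of its own list among the 10 leading genes of Pi16-like FB. In the SI library, Ackr4 was the only marker of its own list among those of CD81 Grem1-like FB. Jchain, Igha and Igkc, which encode immunoglobulin chains, were among the 10 leading genes of SI Fgfr2-like FB. The median cell of that class held 0 UMIs of the immune list. That list held no immunoglobulin chain gene, and cells that met it had already been left out of FB. The source of the immunoglobulin transcripts was not tested. Levels are counts per 1000000 (CPM), from the UMIs of a class pooled. A UMI counts a captured transcript once, so CPM were not scaled by gene length.

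Most of the family lies in 3 gene neighbourhoods of the mouse genome (GRCm38). On chromosome 10, Dcn (97479609 to 97518143) and Lum (97565128 to 97572703) share a 203 kb stretch with Kera and Epyc and with no other protein-coding gene. On chromosome 1, Optc (133897199 to 133907999), Prelp (133910304 to 133921414) and Fmod (134037254 to 134048277) lie within 151 kb. On chromosome 13, Ecm2, Aspn (49544443 to 49567565), Omd (49582462 to 49592822) and Ogn (49608046 to 49624501) lie within 120 kb, inside the span of Cenpp, a centromere protein gene on the other strand. Bgn (73483602 to 73495933) is on chromosome X, and Podn (108014791 to 108096445) is on chromosome 4, where it overlaps Scp2 on the same strand. Whether reads were assigned by strand was not stated, so UMIs of Podn and Scp2, and of Cenpp and its 4 overlapping genes, may have been split between partners. Cenpp stood at 2.93 CPM in LI and 3.46 CPM in SI FB.

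The 250 bases before the RefSeq transcript start (GRCm38.p6) are shown for Ogn and Omd, which were higher in PDGFRAhi-like FB than in other FB of both libraries, for Optc, which was higher in mural cells than in FB, and for Aspn as the neighbour of Omd and Ogn. Capitals mark matches of the motifs searched on both strands, and all 4 windows are given 5′ to 3′ on the strand of the gene.
Ogn, chr13:49607765-49608014 (+): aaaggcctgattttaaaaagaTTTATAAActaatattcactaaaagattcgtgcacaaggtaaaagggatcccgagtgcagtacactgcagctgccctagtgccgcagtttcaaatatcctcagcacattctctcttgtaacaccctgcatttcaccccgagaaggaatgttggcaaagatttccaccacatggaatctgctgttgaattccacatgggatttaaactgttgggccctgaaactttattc
Omd, chr13:49582212-49582461 (+): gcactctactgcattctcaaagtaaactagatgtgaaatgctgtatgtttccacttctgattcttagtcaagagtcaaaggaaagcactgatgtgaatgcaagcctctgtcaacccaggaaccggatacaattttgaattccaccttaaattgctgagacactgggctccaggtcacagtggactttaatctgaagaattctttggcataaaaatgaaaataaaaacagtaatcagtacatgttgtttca
Aspn, chr13:49544193-49544442 (+): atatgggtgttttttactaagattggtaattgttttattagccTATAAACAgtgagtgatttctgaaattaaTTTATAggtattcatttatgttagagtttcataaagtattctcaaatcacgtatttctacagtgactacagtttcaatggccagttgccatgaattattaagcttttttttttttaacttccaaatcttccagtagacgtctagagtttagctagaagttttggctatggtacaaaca
Optc, chr1:133908000-133908249 (-): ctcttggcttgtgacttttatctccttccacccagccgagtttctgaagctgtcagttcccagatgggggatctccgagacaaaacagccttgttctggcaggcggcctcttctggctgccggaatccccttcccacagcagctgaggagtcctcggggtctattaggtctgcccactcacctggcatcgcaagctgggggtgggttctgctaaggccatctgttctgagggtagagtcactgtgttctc
The motifs were TATAAA (the letters of the TATA box), TAAACA (a forkhead core), TGANTCA (the AP-1 site) and the CArG box of serum response factor. TATAAA was present in 12.4% of 32817 promoters of the same length, TAAACA in 12.0%, TGANTCA in 6.75% and the CArG box in 1.47%. The Ogn window held TATAAA on both strands in overlapping positions, 229 to 222 bases before the start, and the RefSeq start of Ogn differed from that of the gene span above. The Aspn window held 2 matches of TATAAA, at positions -207 to -202 and -178 to -173 from the start, and its match of TAAACA overlapped the first. Whether any of these matches acts as a promoter element was not tested. No match was found in the windows of Omd and Optc. The 4 windows had 42% (Ogn), 38.4% (Omd), 30% (Aspn) and 56.8% (Optc) G and C, beside a median of 52.4% over all promoters.

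The SLRP transcripts were abundant in FB and several times less so in mural cells. Summed over the 10 genes, they made up 2.05% of all UMIs of LI FB and 2.36% of all UMIs of SI FB, against 0.507% and 0.418% in mural cells. Dcn alone gave 70.0% of these UMIs in LI FB and 72.9% in SI FB, Lum 12.1% and 13.3%, and Bgn 9.68% and 8.01%. In mural cells Dcn gave 45.8% and 45.4%, Aspn 22.1% and 17.1%, and Bgn 15.5% and 22.3%. By class, the summed level was highest in CD81 Grem1-like FB, at 23829 CPM (LI) and 26799 CPM (SI), and among FB subsets lowest in PDGFRAhi-like FB, at 11966 CPM (LI) and 16241 CPM (SI). SMC-like cells stood at 8313 and 7041 CPM and pericyte-like cells at 3142 and 3011 CPM. With each cell thinned to 2000 UMIs, FB carried on average 4.13 of the 10 genes in LI (SD over cells 1.07) and 4.16 in SI (SD 0.94), and mural cells 2.70 and 2.45.

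**Figure D1:**
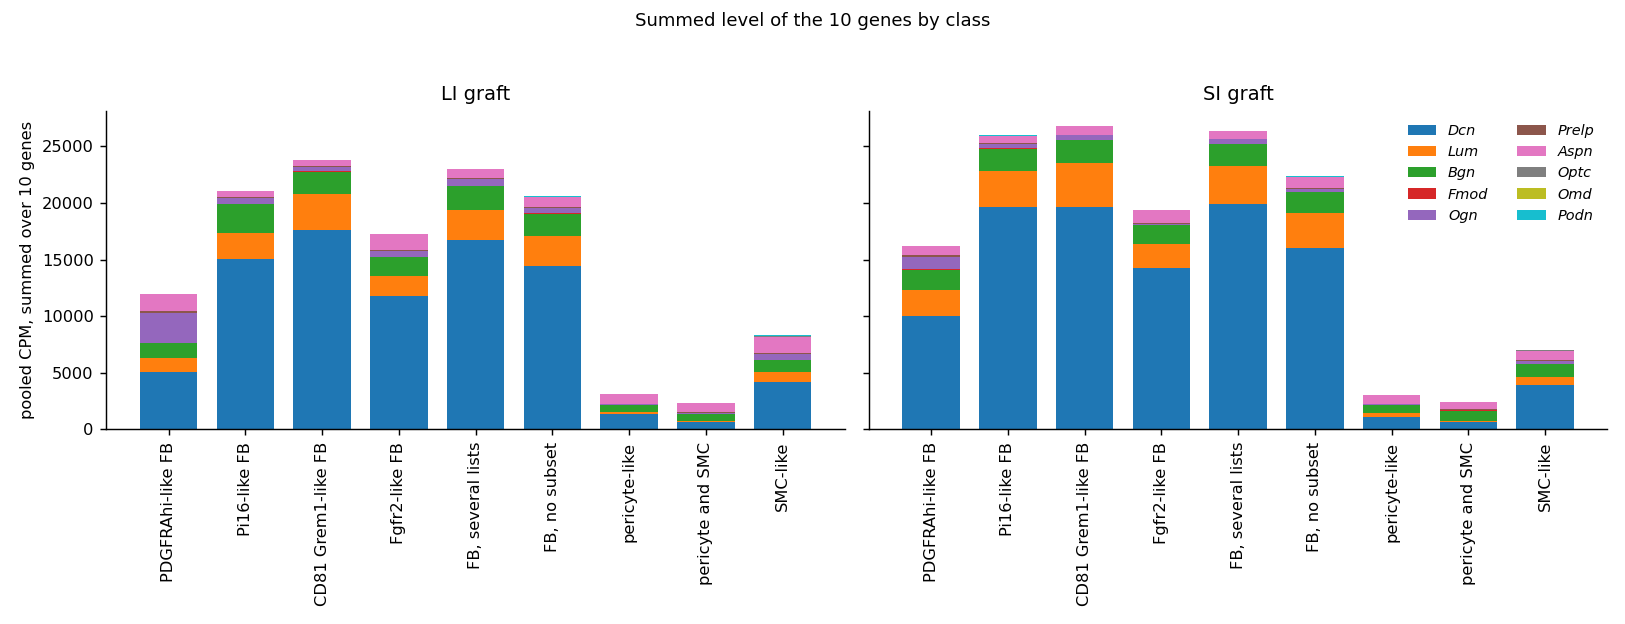
Pooled CPM of the 10 SLRP genes stacked by stromal class (x axis) in LI (left) and SI graft (right), with each colour standing for 1 gene. Dcn forms the largest block in every FB class, and Ogn is visible as a wide block in LI PDGFRAhi-like FB, where it made up 22.3% of the SLRP UMIs.

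Within FB and mural cells, the genes were described by the structural class of the protein. Of the class I proteins, decorin (Dcn) binds collagen fibrils and TGF-β and biglycan (Bgn) binds collagen and toll-like receptors, whereas asporin (Aspn) carries a run of aspartate residues in place of the chain attachment site. Dcn stood at 14362 CPM in LI FB (14326 to 14398) and 17192 CPM in SI FB (17147 to 17238). It was detected in 99.2% and 99.9% of FB, and with 2000 UMIs per cell the median cell held 24.0 and 33.0 Dcn UMIs. In mural cells Dcn stood at 2322 and 1896 CPM. The log2 ratio of FB over mural cells was 2.63 in LI and 3.18 in SI. The order of classes for Dcn ran from CD81 Grem1-like, Pi16-like and Fgfr2-like to PDGFRAhi-like FB and on to SMC-like and pericyte-like cells, and Pi16-like and CD81 Grem1-like FB did not differ beyond their intervals in SI.

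Dcn was also found in cells that should lack it. It was present in 58.3% of the 36 immune-like cells of the LI library (40.8 to 74.5%, median depth 2701 UMIs) and 47.1% of the 17 of the SI library (23.0 to 72.2%, 2535 UMIs), at 816 and 1438 CPM. In the 33 epithelial-like cells of the SI library it stood at 21.2 CPM, in 18.2% of cells with a median of 12276 UMIs. The share of pericyte-like cells with Dcn, 67.2% at a median of 4047 UMIs (LI) and 56.8% at 3874 UMIs (SI), lay inside the interval of the immune-like cells, so this share alone was not read as expression. The pooled Dcn level of pericyte-like cells was 1329 CPM (LI) and 1106 CPM (SI), above that of the immune-like cells in LI and below it in SI, and above that of the epithelial-like cells.

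Bgn stood at 1986 CPM in LI FB and 1888 CPM in SI FB, and at 787 and 932 CPM in mural cells. The log2 ratio of FB over mural cells was 1.34 in LI and 1.02 in SI, which was a narrower gap than that of Dcn. Pi16-like FB had the highest Bgn level of the LI graft, 2534 CPM (2495 to 2574). In the SI graft CD81 Grem1-like FB at 1999 CPM and Pi16-like FB at 1967 CPM had overlapping intervals. Aspn did not separate FB from mural cells. It stood at 861 and 855 CPM in FB and at 1120 and 715 CPM in mural cells, with a log2 ratio of FB over mural cells of -0.38 in LI and 0.26 in SI. Its highest LI levels were in PDGFRAhi-like FB (1510 CPM) and SMC-like cells (1467 CPM), whose intervals overlapped. In the SI graft Fgfr2-like FB had the highest Aspn level, 1144 CPM (1113 to 1176). Pericyte-like cells, with a summed SLRP level below that of SMC-like cells and of every FB subset, had Aspn at 914 and 793 CPM, in 84.7% and 86.7% of cells. The immune-like cells had Aspn in 11.1% and 11.8%.

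Of the class II proteins, lumican (Lum) and fibromodulin (Fmod) bind overlapping sites on collagen fibrils, Prelp links basement membranes to the matrix beneath, and osteomodulin (Omd) is best known from bone and teeth. Lum stood at 2482 CPM in LI FB and 3144 CPM in SI FB and at 447 and 368 CPM in mural cells. It was highest in CD81 Grem1-like FB of both libraries, at 3173 CPM (3132 to 3215) and 3942 CPM (3897 to 3987). Over the 9 classes of both libraries, Lum and Dcn had a Pearson correlation of log2 CPM of 0.99 (18 points, which share libraries, a description only). Fmod was a low gene, at 35.4 and 27.5 CPM, detected in 11.8% of LI FB and 8.43% of SI FB. It stood at 40.9 and 35.2 CPM in Pi16-like FB and at 43.0 and 38.5 CPM in CD81 Grem1-like FB. In PDGFRAhi-like FB it was at 7.36 CPM (24 UMIs) and 7.34 CPM (16 UMIs). Prelp stood at 74.3 and 84.0 CPM in FB and at 60.5 and 54.0 CPM in mural cells, and among the 9 classes compared was highest in PDGFRAhi-like FB, at 98.5 CPM (88.0 to 110) in LI and 177 CPM (159 to 195) in SI. In the LI graft this interval overlapped those of SMC-like cells (92.1 CPM) and Fgfr2-like FB (90.7 CPM). Omd gave 108 UMIs in LI FB and 99 in SI FB. PDGFRAhi-like FB held 38 and 24 of these, at 11.7 CPM (8.25 to 16.0) and 11 CPM (7.05 to 16.4), followed by Pi16-like FB at 4.01 and 5.68 CPM.

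Of the class III proteins, osteoglycin (Ogn), also named mimecan, carries keratan sulfate in the cornea, and opticin (Optc) is known from the vitreous of the eye. Ogn stood at 676 CPM in LI FB (668 to 683) and 355 CPM in SI FB (348 to 361). In both libraries PDGFRAhi-like FB had by far the highest level, 2665 CPM (2610 to 2722) in LI and 1073 CPM (1030 to 1118) in SI, and the next class was at 622 and 403 CPM. At 2000 UMIs per cell, Ogn was detected in 83.4% of LI and 66.0% of SI PDGFRAhi-like FB, beside 49.0% and 34.7% of all FB. Without thinning these shares were 91.4% and 77.1%, and 69.0% and 55.6%. Immune-like cells had Ogn in 8.33% (LI) and 11.8% (SI). SMC-like cells stood at 507 and 275 CPM and pericyte-like cells at 53.1 and 45.0 CPM.

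Optc had the opposite distribution. It gave 47 UMIs in the FB of each library, at 1.10 and 1.48 CPM. In SMC-like cells it stood at 55.3 CPM in LI (45.2 to 66.9, 105 UMIs) and 68.6 CPM in SI (60.0 to 78.1, 228 UMIs). It was detected in 18.7% of the 390 LI and 18.8% of the 601 SI SMC-like cells, with median depths of 4566 and 4648 UMIs. The LI pericyte-like cells held 0 Optc UMIs, where 3 UMIs would have made 1.97 CPM, and the SI pericyte-like cells held 1. Immune-like and epithelial-like cells held 0 Optc UMIs in both libraries. Cells with markers of both pericytes and SMC were between, at 11.8 and 45.2 CPM. The log2 ratio of SMC-like cells over FB was 4.74 (4.38 to 5.07) in LI and 4.81 (4.49 to 5.11) in SI.

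Podocan (Podn), a class V protein first described in kidney podocytes, was highest in SMC-like cells as well, at 88.9 CPM (76.0 to 103) in LI and 44.5 CPM (37.6 to 52.3) in SI. In the SI graft this interval overlapped that of Fgfr2-like FB (36.0 CPM). FB stood at 38.8 and 24.4 CPM. Scp2, which overlaps Podn, stood at 164 and 168 CPM in SMC-like cells and 115 and 104 CPM in FB, and its part in the Podn level was not tested.

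**Figure D2:**
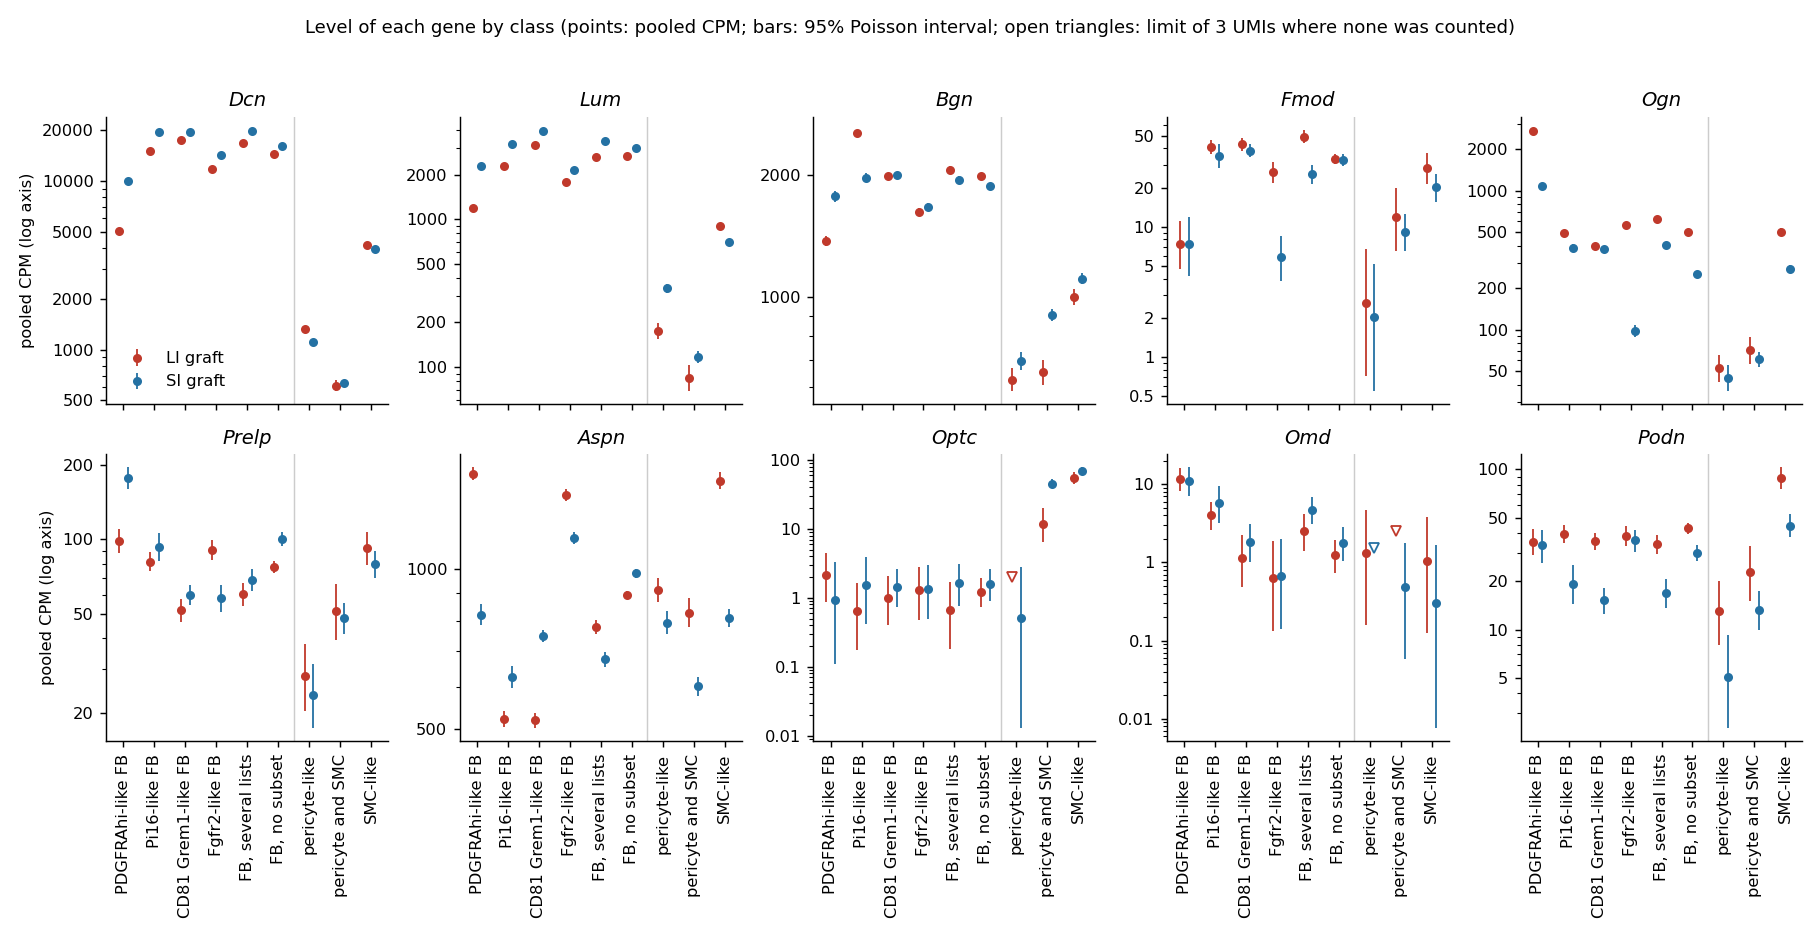
Pooled CPM (log axis, each panel with its own range) of each of the 10 genes in the 9 stromal classes, red for the LI graft and blue for the SI graft, with 95% Poisson intervals as bars and open triangles at the level of 3 UMIs where none was counted. Ogn and Omd peak in PDGFRAhi-like FB, Optc in SMC-like cells, and Dcn, Lum and Bgn are high in all FB classes.

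With a log2 ratio past 1 in both libraries taken as the limit, and with genes at 10 CPM or more on either side, 9 of the 10 genes could be read between FB and mural cells. Dcn, Lum, Bgn, Fmod and Ogn were higher in FB, as were 5.20% of 8738 genes. Under the alternative settings described below, only Dcn and Lum stayed past the limit throughout. The lowest ratios were 0.78 (LI) and 0.89 (SI) for Bgn, 0.81 and 0.67 for Fmod, and 0.99 (LI) for Ogn. Optc was lower in FB, as were 6.81% of the genes, but it reached the minimum through mural cells alone (25.8 and 44.1 CPM), so this call is a description only. The log2 ratios of Lum were 2.47 and 3.09, those of Fmod 1.13 and 1.18, and those of Ogn 1.46 and 1.41. Among the 9 classes with at least 50 cells in both libraries, 6 of the 10 genes had the same highest class in both. These were Ogn, Omd and Prelp (PDGFRAhi-like FB), Lum (CD81 Grem1-like FB), and Optc and Podn (SMC-like cells). The interval of the highest class overlapped that of the next for Prelp in LI and for Omd and Podn in SI. No share over all genes stands beside the count of 6, so it is a description only.

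Each FB subset was then set against all other FB of its library. PDGFRAhi-like FB stood apart. Ogn was higher in this subset, with a log2 ratio of 2.38 (2.34 to 2.42) in LI and 1.83 (1.76 to 1.89) in SI. Omd was higher, at 2.19 (1.68 to 2.66) and 1.77 (1.14 to 2.35). Of 8588 genes at 10 CPM or more on either side, 3.62% were called higher. Omd reached this minimum through PDGFRAhi-like FB alone, with 1.78 and 2.53 CPM in the other FB, so its ratio is a description and the count of SLRP genes called higher was not read against that share. Fmod was lower, at -2.21 (-2.76 to -1.69) and -1.85 (-2.54 to -1.21), and 3.05% of all genes were called lower. Fmod reached the minimum through the other FB alone (37.7 and 29.0 CPM, against 7.36 and 7.34 CPM), so this call is a description only. A similarly low Fmod level was found in SI Fgfr2-like FB, at 5.85 CPM. Dcn was below the other FB in both grafts but past the limit in LI alone, at -1.57 and -0.82, and so was Lum, at -1.13 and -0.48. Prelp was above the other FB at 0.44 and 1.18. Aspn differed between libraries, at 0.90 and -0.06. The smaller share of Dcn was visible cell by cell, with a median of 7 Dcn UMIs per 2000 in LI and 18.0 in SI PDGFRAhi-like FB.

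None of the 8 genes at the minimum level passed the limit in both libraries in the other 3 subsets. The backgrounds were 1.15% higher and 2.29% lower for Pi16-like FB, 0.0366% and 0.842% for CD81 Grem1-like FB, and 0.659% and 1.64% for Fgfr2-like FB. CD81 Grem1-like FB had Lum above the other FB by 0.44 and 0.45 and Dcn by 0.36 and 0.25 on the log2 scale. Their Prelp was below at -0.60 in both grafts. Pi16-like FB had Aspn below the other FB, at -0.81 and -0.48. Fgfr2-like FB had Aspn above them, at 0.79 and 0.50. In the SI graft alone, Fgfr2-like FB were low in Ogn, at -2.02 (-2.16 to -1.88), and in Fmod, at -2.22 (-2.74 to -1.73). Ogn there was at 97.0 CPM, beside 568 CPM in LI Fgfr2-like FB, where the log2 ratio was -0.28. For Fmod these levels were 5.85 and 26.2 CPM. Whether the immunoglobulin transcripts in these SI cells had a part in this was not tested.

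**Figure D3:**
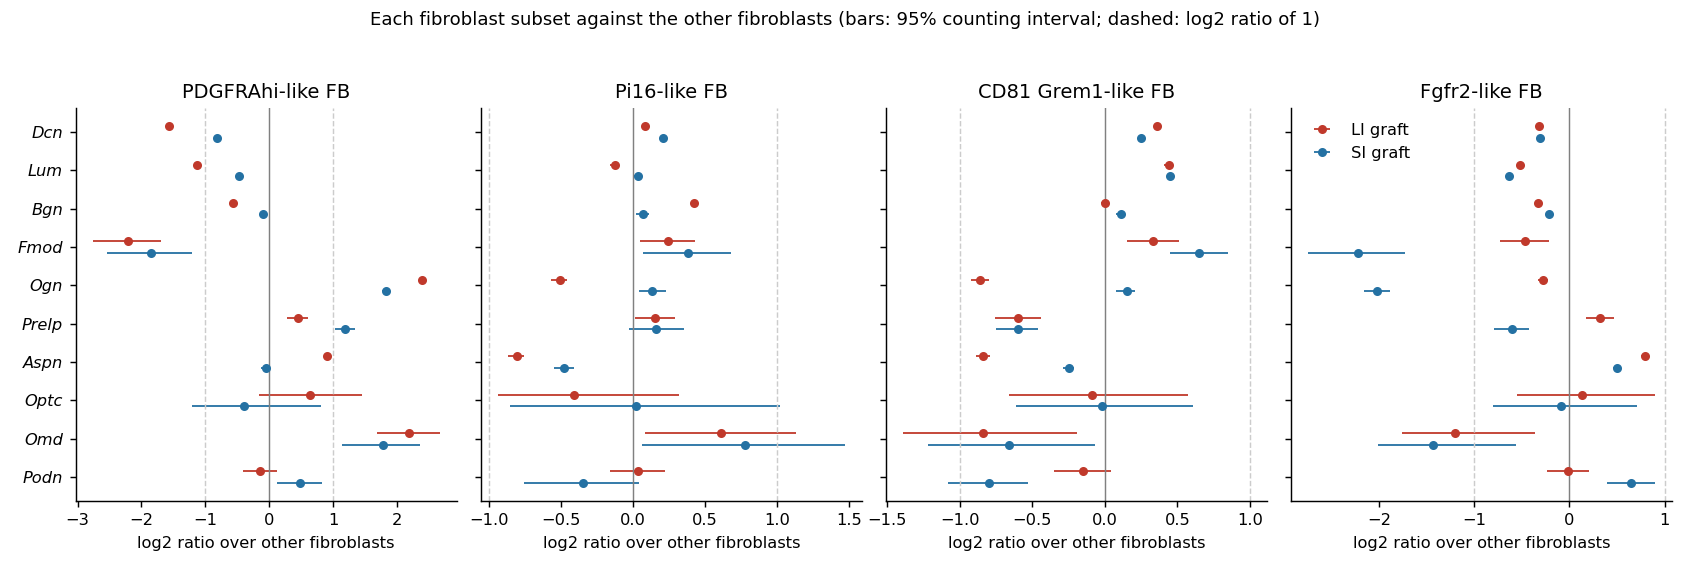
Log2 ratio of each FB subset over all other FB (x axis) for the 10 genes (y axis), red for the LI graft and blue for the SI graft, with 95% counting intervals and dashed lines at log2 ratios of -1 and 1. Ogn and Omd lie right of 1 and Fmod left of -1 in PDGFRAhi-like FB of both libraries, and in Fgfr2-like FB the SI points of Ogn (-2.02) and Fmod (-2.22) lie far left of the LI points.

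Between graft sites, Ogn had the largest difference among the SLRP genes of FB. Of the 8 genes at 10 CPM or more, 0 were past a log2 ratio of 1 in either direction, a count near the background of 3.63% of 8585 genes. Under 4 other settings Ogn was past this limit (1.03 to 1.09), and in male cells Lum, Prelp and Aspn were past it in the other direction. No share of all genes is given for those settings, so these counts are a description only. The median over the 8 genes was 0.04, beside -0.00 over all genes. With all cells, Ogn was at 0.93 (0.90 to 0.96) for LI over SI, followed by Podn at 0.65 (0.53 to 0.77) and Fmod at 0.35 (0.24 to 0.47). Lum was at -0.34, Dcn at -0.26 and Prelp at -0.17. Bgn at 0.07 and Aspn at 0.01 were nearly level. Omd and Optc were below the minimum. The summed level was lower in LI by a log2 ratio of -0.20. Since either a 3′ or a 5′ kit was used and the kit of each library was not stated, graft site and kit cannot be told apart.

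The Ogn ratio between sites was unlike in the FB classes. LI over SI was 2.54 (2.39 to 2.69) in Fgfr2-like FB and 1.31 (1.25 to 1.38) in PDGFRAhi-like FB, but 0.36 in Pi16-like and 0.07 in CD81 Grem1-like FB. In FB of no subset, the largest class, it was 1.01 (0.95 to 1.08), and in FB of several subsets 0.62. Podn was at 1.17 in CD81 Grem1-like and 1.0 in Pi16-like FB, and at 0.09 and 0.07 in Fgfr2-like and PDGFRAhi-like FB. In PDGFRAhi-like FB, Dcn and Lum were lower in LI, at -0.98 and -0.96, and Aspn was higher, at 0.88. In SMC-like cells Ogn was at 0.88, Podn at 0.98 and Aspn at 0.86. Optc was at -0.31 (-0.65 to 0.03) there, an interval that holds 0.

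The libraries also differed in the sex of their cells. Female cells, with Xist and no Y-linked UMI, were 80.7% of LI and 55.0% of SI cells, and male cells, with a Y-linked UMI and no Xist, were 9.0% and 24.3%. Among the 5137 LI and 2701 SI female FB, Ogn stood at 811 and 380 CPM. On the log2 scale LI stood above SI by 1.09 (1.05 to 1.13). Among the 600 LI and 1171 SI male FB it stood at 175 and 338 CPM, and the ratio was -0.95 (-1.05 to -0.85). Aspn was at 0.05 in female and -1.63 in male FB, Lum at -0.25 and -1.30, Prelp at -0.41 and -1.03, and Dcn at -0.22 and -0.76. Male LI FB differed in other ways too. At least 2 MHC class II genes were detected in 59.3% of them, against 7.75% of female LI FB, 36.5% of male SI FB and 9.96% of female SI FB. CD81 Grem1-like cells made up 34.2% of male and 11% of female LI FB, and Fgfr2-like cells 3.0% and 15.7%. Without the FB with MHC class II genes, the Ogn ratio was 1.16 in female FB and -1.62 in male FB. Within CD81 Grem1-like FB, the subset with the most male cells, it was 0.45 in female and -1.50 in male cells. In PDGFRAhi-like FB of the SI graft, female cells had Ogn at 746 CPM and male cells at 1376 CPM, and in those of the LI graft female cells had it at 2888 CPM and the 29 male cells at 299 CPM. This last value was above the 175 CPM of all male LI FB and close to the 293 CPM of male LI Pi16-like FB. The Ogn peak of LI PDGFRAhi-like FB was thus large in female cells and small or absent in these 29 male cells. The number of embryos behind each sex was not stated.

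**Figure D4:**
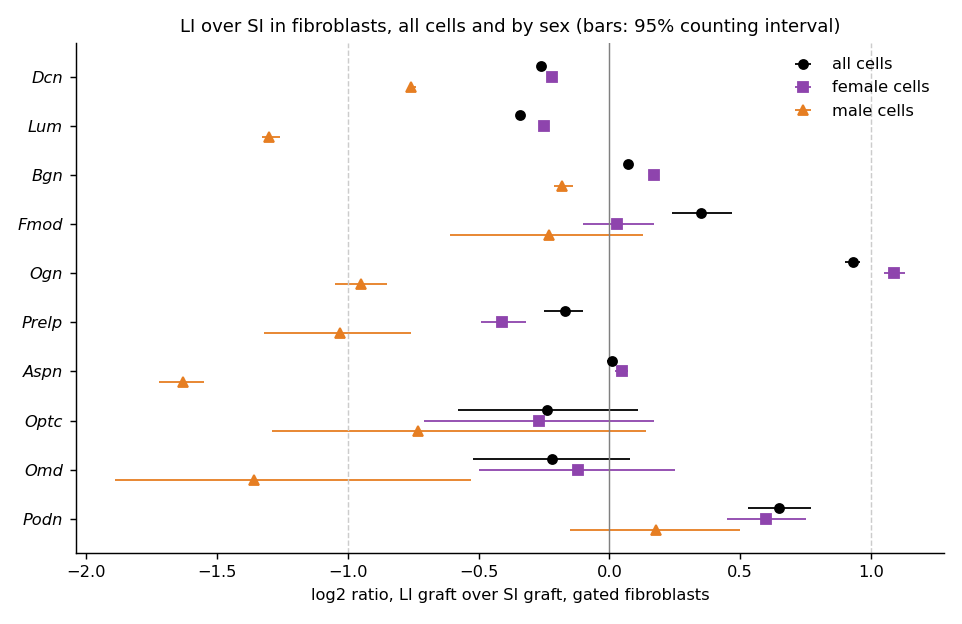
Log2 ratio of the LI graft over the SI graft in FB (x axis) for the 10 genes (y axis), for all cells (black), female cells (purple) and male cells (orange), with 95% counting intervals and dashed lines at -1 and 1. Ogn lies at 1.09 in female and -0.95 in male FB, and 9 of the male points lie left of 0, that of Podn (0.18) being the exception. No share over all genes stands beside this count.

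At the level of single FB thinned to 2000 UMIs, detection of Ogn was set beside that of its chromosome 13 neighbours. LI FB with Ogn had Aspn in 65.3%, against 54.1% of those without Ogn. For SI FB these shares were 69.0% and 68.5%. FB with Omd were few, 29 in LI and 23 in SI. They had Ogn in 72.4% and 60.9%, against 48.9% and 34.5% of FB without Omd. FB with Fmod had Ogn in 67.8% (LI) and 65.0% (SI), against 48.0% and 33.4% of those without Fmod, although Fmod was low in the subset where Ogn was highest.

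Of 7 further SLRP genes, Ecm2 and Epyc were above 10 CPM in FB. Ecm2, a neighbour of Aspn, stood at 61.9 and 87.2 CPM in FB and at 64.2 and 52.3 CPM in mural cells. Epyc, the class III neighbour of Dcn and Lum, stood at 23.8 and 40.8 CPM in FB, with 62.0 and 137 CPM in Pi16-like FB and 1.49 and 0.225 CPM in Fgfr2-like FB. Tsku, an inhibitor of BMP and Wnt signals, stood at 8.84 and 9.14 CPM in FB and 17.2 and 18.9 CPM in Pi16-like FB. Podnl1 was at 1.08 and 0.691 CPM. Kera gave 16 and 21 UMIs, Nyx 2 and 1, and Chad 1 and 0.

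The genes that act on or with SLRPs were read in FB from 7 lists, beside 3.63% of all 8585 genes past a log2 ratio of 1. Of 12 measured genes for the linkage region and chain synthesis, 1 passed a log2 ratio of 1 in either direction, with a median of 0.02. This was Csgalnact1, which starts chondroitin sulfate chains, higher in LI at 29.0 and 6.03 CPM (2.10). Of 6 sulfotransferases, 1 passed, Chst11, at 23.6 and 8.61 CPM (1.36), and the median was 0.01. Of 2 genes for keratan sulfate extension, 0 passed, with a median of -0.31. Among 11 collagens Col11a1 was higher, at 13.7 and 5.66 CPM (1.15), but the median was -0.41, with Col1a1 at 5825 and 8133 CPM and Col3a1 at 11305 and 15012 CPM. Of 12 growth factor partners and receptors 0 passed, with a median of -0.19. The largest ratio was that of Tlr2, a receptor of biglycan, at 5.58 and 11.5 CPM (-0.93). Of the TGF-β ligands, Tgfb1 was at 79.3 and 41.9 CPM (0.91), Tgfb2 at 53.3 and 97.9 CPM (-0.87) and Tgfb3 at 72.6 and 101 CPM (-0.46). Of 6 genes for processing and cleavage 0 passed, with a median of -0.05 and Bmp1, a protease that trims procollagens and the biglycan propeptide, at 110 and 153 CPM. Of 15 other proteoglycan core proteins, Srgn, the proteoglycan of secretory granules, was higher at 35.6 and 11.7 CPM (1.53), Spock2 was lower at 4.13 and 10.4 CPM (-1.16), and the median was -0.21. The median over all 8585 genes was -0.00. Csgalnact1, Chst11, Col11a1 and Spock2 each reached 10 CPM only in the library where they were higher. Their calls, and the counts they enter, are a description only.

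The 3 genes whose log2 CPM was most like that of each SLRP gene were sought among 4025 genes, over the 18 class and library values. For Dcn they were Htra3 (Pearson r 0.980), Rcn3 (0.974) and Col1a2 (0.970). For Lum they were Fam114a1 (0.976), Arfgap1 (0.971) and Tmem263 (0.969), and for Bgn Tmed3 (0.977), Surf4 (0.973) and S100a16 (0.972). Optc was most like Cnn1 (0.970), which encodes the smooth muscle protein calponin and was itself a marker of the SMC class, then Sh3bgr (0.964) and Sntg2 (0.962). The likeness was weaker for Ogn, with Pik3ip1 (0.890), Ccdc127 (0.889) and Myh10 (0.879), for Prelp, with Fzd2 (0.883), Hspg2 (0.881) and Cped1 (0.875), and for Aspn, with Chd9 (0.895), Ptch1 (0.846) and Tnrc6a (0.843). These are descriptions over points that share 2 libraries. Fmod, Omd and Podn did not reach 50 CPM in some class of both libraries.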

How the data were processed

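Libraries were made on the 10x Genomics Chromium system and, per the labels, aligned to mm10 with Cell Ranger 3.1.0. The authors deposited raw counts, that is UMIs per gene and cell barcode, with no normalization. The annotation release and the strand setting were not given in the sources used here. The 10 genes, the gene lists and the marker lists were chosen with earlier results of these data known, and the gate thresholds (3 distinct markers, and 50 cells in both libraries for a class to be compared) were set after the marker distributions were seen. The FB markers were Pdgfra, Pdpn, Cd34, Dpt, Clec3b, Dpep1, Medag and Adamdec1. A cell that met several lineage lists (737 LI and 698 SI cells) or none (1630 and 829) entered no class, and FB that met several subset lists (594 and 562) or none (2744 and 1731) were classes of their own. There were 931 LI and 462 SI cells 1 marker short of the FB gate, and 1430 and 819 FB exactly at it. Exactly at the subset gate were 751 of 893 LI and 743 of 1021 SI CD81 Grem1-like FB. So were 690 of 859 and 602 of 731 Fgfr2-like, 355 of 582 and 165 of 305 Pi16-like, and 204 of 583 and 90 of 345 PDGFRAhi-like FB. With 1 more marker for each gate, 191 and 359 CD81 Grem1-like and 175 and 171 Fgfr2-like FB were left. Scrublet (scanpy 1.11.5) called 0 and 1 doublets by its own threshold, which is too few, so doublets were kept and the 1071 and 742 highest scores were removed in an alternative.

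CPM were pooled over the cells of a class, with exact 95% Poisson intervals. Shares of cells with a UMI had exact Clopper-Pearson intervals and were repeated in cells thinned to 2000 UMIs, which left out 174 LI and 179 SI FB. Log2 ratios had a pseudocount of 1 CPM and an interval from an exact binomial split of the UMIs, and were counted at 10 CPM or more on either side. With 1 library per group there was no test. Named genes were the 10 genes, 7 further SLRP genes, up to 4 genes per list with the largest log2 ratio, of which those past the limit and a few others are given, and the 3 most similar genes of each SLRP gene at 50 CPM or more. Col1a1, Col3a1, Bmp1 and Tgfb3 were given for their known relation to SLRPs after their values were seen. Positions came from GENCODE (GRCm38) and promoters from RefSeq (GRCm38.p6), with 8 of the 10 genes matched. Scripts ran in Python 3.11.15 with scipy 1.17.1 and in R 4.3.3 with Seurat 5.3.0 and, for TMM factors, edgeR 4.0.16. They were tested on simulated data.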

Additional observations from a re-analysis of the deposited data

Results flagged for a closer look

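In 17 cases a ratio had opposite signs in the 2 groups compared, with both counting intervals clear of 0, over all class comparisons and, by sex, over classes with at least 50 cells of each sex and library. None of these differences was tested, since each group held 1 library. On the log2 scale, 6 cases compared classes within a library. Against the other FB, Ogn was at -0.51 in LI and 0.13 in SI Pi16-like FB, and at -0.86 in LI and 0.15 in SI CD81 Grem1-like FB, while Prelp was at 0.32 in LI and -0.60 in SI Fgfr2-like FB. Aspn was at -0.38 (LI) and 0.26 (SI) in FB over mural cells, at 0.77 and -0.08 in SMC-like cells over FB, and at 0.08 and -0.11 in pericyte-like cells over FB. The other 11 cases were ratios of LI over SI that differed in sign between female and male cells. In all FB, Ogn was at 1.09 in female and -0.95 in male cells, Aspn at 0.05 and -1.63, and Bgn at 0.17 and -0.18. In CD81 Grem1-like FB 5 genes were above 0 in female and below 0 in male cells, namely Dcn (0.12 and -0.82), Lum (0.10 and -1.36), Bgn (0.20 and -0.19), Fmod (0.40 and -1.0) and Ogn (0.45 and -1.50). Bgn was at 0.38 in female and -0.20 in male Pi16-like FB. In mural cells Aspn was at 0.65 and -0.40 and Dcn, in the opposite order, at -0.15 and 0.74. The other FB of the LI graft include the PDGFRAhi-like cells with Ogn at 2665 CPM, and those of the SI graft include the Fgfr2-like cells with Ogn at 97.0 CPM. The Ogn levels themselves were 494 CPM (LI) and 386 CPM (SI) in Pi16-like FB and 402 and 383 CPM in CD81 Grem1-like FB. The male LI FB numbered 600, and 59.3% of them carried MHC class II genes.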

How the results depend on the processing

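Of 90 values of the summed level and of the counts under 14 alternative settings, 69 kept within their limits and 21 moved. Of the other values, 442 kept within their limits and 286 moved. Among all values, 0 changed the sign of a called ratio, but ratios that were not called did change sign. LI over SI in FB ranged from -0.95 to 1.09 for Ogn and from -1.63 to 0.10 for Aspn. For Prelp, LI FB over mural cells ranged from -0.99 to 0.46. Male cells alone moved most. The summed log2 ratio of LI over SI was -0.20, and -0.78 in male cells, -0.15 in female cells, -0.12 without cells carrying MHC class II genes, -0.18 with the mean of per-cell CPM, -0.19 with a filter of 1000 genes and 5% mitochondrial UMIs, and -0.20 with gates on thinned cells. The count of SLRP genes higher in LI FB went from 0 to 1 (Ogn) in female cells (1.09) and without MHC class II cells (1.08). It did so too with the mean of per-cell CPM (1.09) and with gates on thinned cells (1.03). The count of lower genes went from 0 to 3 in male cells (Lum, Prelp and Aspn). No share of all genes past the limit is given for these settings, so these counts are a description only. Genes with the same highest class in both libraries went from 6 to 3 in male cells. Gene and subset pairs past the limit in both libraries went from 3 to 0 in male cells, where fewer than 50 LI PDGFRAhi-like and Fgfr2-like cells were left, and to 1 with a minimum of 50 CPM. List genes higher in LI went from 4 to 2 (mean of per-cell CPM), 8 (male) and 0 (minimum of 50 CPM), and list genes lower from 1 to 2 (highest Scrublet scores removed), 11 (male), 0 (pseudocount of 5 CPM) and 0 (minimum of 50 CPM). Beyond the settings that leave out cells or genes, the cause was not tested. Ogn in PDGFRAhi-like FB over other FB ranged from 2.18 to 2.66 (LI) and from 1.08 to 2.14 (SI) over 10 settings, and Optc in SMC-like cells over FB from 3.30 to 4.81 (LI) and from 3.51 to 5.04 (SI) over 11. The Ogn range in LI leaves out the setting of male cells alone, with 29 LI PDGFRAhi-like cells, whose much lower Ogn level is given above. In Seurat clusters no SI cluster was CD81 Grem1-like, and Fmod in SI PDGFRAhi-like FB was at -0.86, short of the limit. TMM factors left the summed ratio at -0.20. No paired analysis was possible because each graft site had 1 library. Depth limits Omd and Optc in FB, with 108 and 99 and with 47 and 47 UMIs.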

Other observations

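Cell classes that were too few in a library to be compared also held UMIs of SLRP genes. Interstitial cell of Cajal (ICC)-like cells, the pacemaker cells of gut muscle, numbered 231 in the LI and 28 in the SI library. They had Aspn at 1028 CPM (LI) and 559 CPM (SI), Dcn at 620 and 525 CPM and Prelp at 101 and 59.3 CPM. Aspn was above Dcn in LI (967 and 583 UMIs), while in SI their counts were nearly equal (66 and 62 UMIs). Both Dcn levels were below those of the immune-like cells given above, so they were not read as expression. Mesothelial-like cells numbered 20 and 8. Dcn stood at 12535 and 8910 CPM in them and was detected in all of these cells, while Lum stood at 304 and 556 CPM, and Aspn gave 3 UMIs in the LI and 0 in the SI cells. Each of these values comes from 1 library, with no test.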
